A study of Mus musculus with 12 samples.

Results

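The guidance genes of the semaphorin, ephrin, slit and netrin systems were followed in mouse granulosa cells, the somatic cells that line the ovarian follicle, before and after an ovulatory stimulus. Members were chosen by the start of the gene symbol: semaphorins (Sema), plexins (Plxn), neuropilins (Nrp1 and Nrp2), ephrins (Efna, Efnb), Eph receptors (Epha, Ephb), slits, Robo receptors, netrins (Ntn) and Unc5 receptors. The rule found 70 of the 18194 genes measured, on 153 probe sets. Where a gene had several probe sets, the brightest on average stood for it. The families held 20 semaphorins, 9 plexins, 2 neuropilins, 8 ephrins, 13 Eph receptors, 3 slits, 4 Robo receptors, 4 netrins and 4 Unc5 receptors. A further 3 matched by name only: Unc50, which encodes a Golgi protein, Unc5cl, and the antisense RNA Plxna4os1.

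These ligands and receptors were first known for steering growing axons, and they also guide vessels and set tissue borders. Semaphorins bind plexins, and secreted class 3 semaphorins mostly need a neuropilin beside the plexin. Ephrins are held on the cell surface and bind Eph receptor tyrosine kinases on the neighbouring cell, so that both cells can signal. Slits are secreted and bind Robo receptors, and netrins bind Unc5 receptors and Dcc. After the ovulatory surge the follicle wall is remodelled, granulosa cells begin to luteinize, and vessels grow into a layer that had none, a setting in which such cues have been studied.

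Each of the 12 arrays carried RNA of granulosa cells pooled from 5 mice, in 4 groups of 3 arrays. The mice lacked exon 6 of Snf2l (Ex6DEL) or were their wild type (WT) littermates. Snf2l, now named Smarca1, encodes an ATPase of ISWI chromatin remodellers, and the series title asks for its part in superovulation and in the control of Fgl2. The deletion came from a cross of a Gata-1 Cre line on a CD-1 background with mice whose Snf2l exon 6 was flanked by loxP sites on a 129Sv background, and the line was then kept on 129SV without Cre. Females aged 24 to 26 days were injected with 5 IU of PMSG, the serum gonadotropin of pregnant mares, to make follicles grow. Cells of the 0 h groups were collected 48 h later. The 4 h groups were given 5 IU of human chorionic gonadotropin (hCG) at that time, which acts on the luteinizing hormone (LH) receptor, and were collected 4 h afterwards. Follicles were punctured by hand, so other follicle cells can be present. Whether the 3 arrays per group hold separate pools of mice is not in the labels, so p-values measure only the spread between these arrays, which may be technical. In pooled RNA, fewer cells of a type and less RNA per cell cannot be told apart.

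Values are log2 intensities with a floor of 2.21, where a level cannot be told from background. The probe sets for 14 preovulatory granulosa genes averaged between 9.71 and 12.38 on every array. The means of 15 endothelial markers lay between 4.05 and 5.13. By limma 0 of the 15 were called in any hCG comparison (1 at an unadjusted p under 0.05 in the mean of both genotypes). Of the arrays before hCG, Ex6DEL 0 h replicate 3 stood apart: 18 LH-induced ovulatory genes averaged 9.47 there, against 4.93 to 5.87 on the other arrays of 0 h and 11 to 12.31 at 4 h. Ex6DEL 0 h replicate 1 stood apart in another way: 14 markers of theca and stroma averaged 11.27, against 7.56 to 9.16 elsewhere, and Cyp17a1, the androgen-making enzyme of theca cells, read 15.14 against 9.20 to 12.55. Smarca1 read 10.72 ± 0.40 in WT and 10.76 ± 0.18 in Ex6DEL at 0 h (mean ± SD, n = 3). The position of its probe set against exon 6 was not examined, so this does not check the genotype.

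Of the 70 genes, 15 had a mean above 8 over the 12 arrays, 17 a mean above 5 and up to 8, and 38 a mean of 5 or less. The share at or below 5 was 54.3%, beside 51.6% of all genes. In 22 genes at least 9 of the 12 arrays lay within 0.1 of the gene's own median, so most of their arrays read alike. Probe sets differ in affinity, so a level is compared only between arrays for the same gene. The genes above 8 were 9 semaphorins (Sema3f, Sema5a, Sema7a, Sema4b, Sema6c, Sema3c, Sema4c, Sema3g and Sema3b), the plexins Plxnc1, Plxnb2 and Plxnb1, the ephrin Efna5, the slit receptor Robo1, and Unc50. Eph receptors, slits, netrins and Unc5 receptors had no member there. Of the netrins, Ntn1, Ntn3 and Ntn5 stayed between 2.21 and 2.68 on every array, and Ntn4, a laminin-like netrin, ranged from 4.44 to 8.39.

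**Figure D1:**
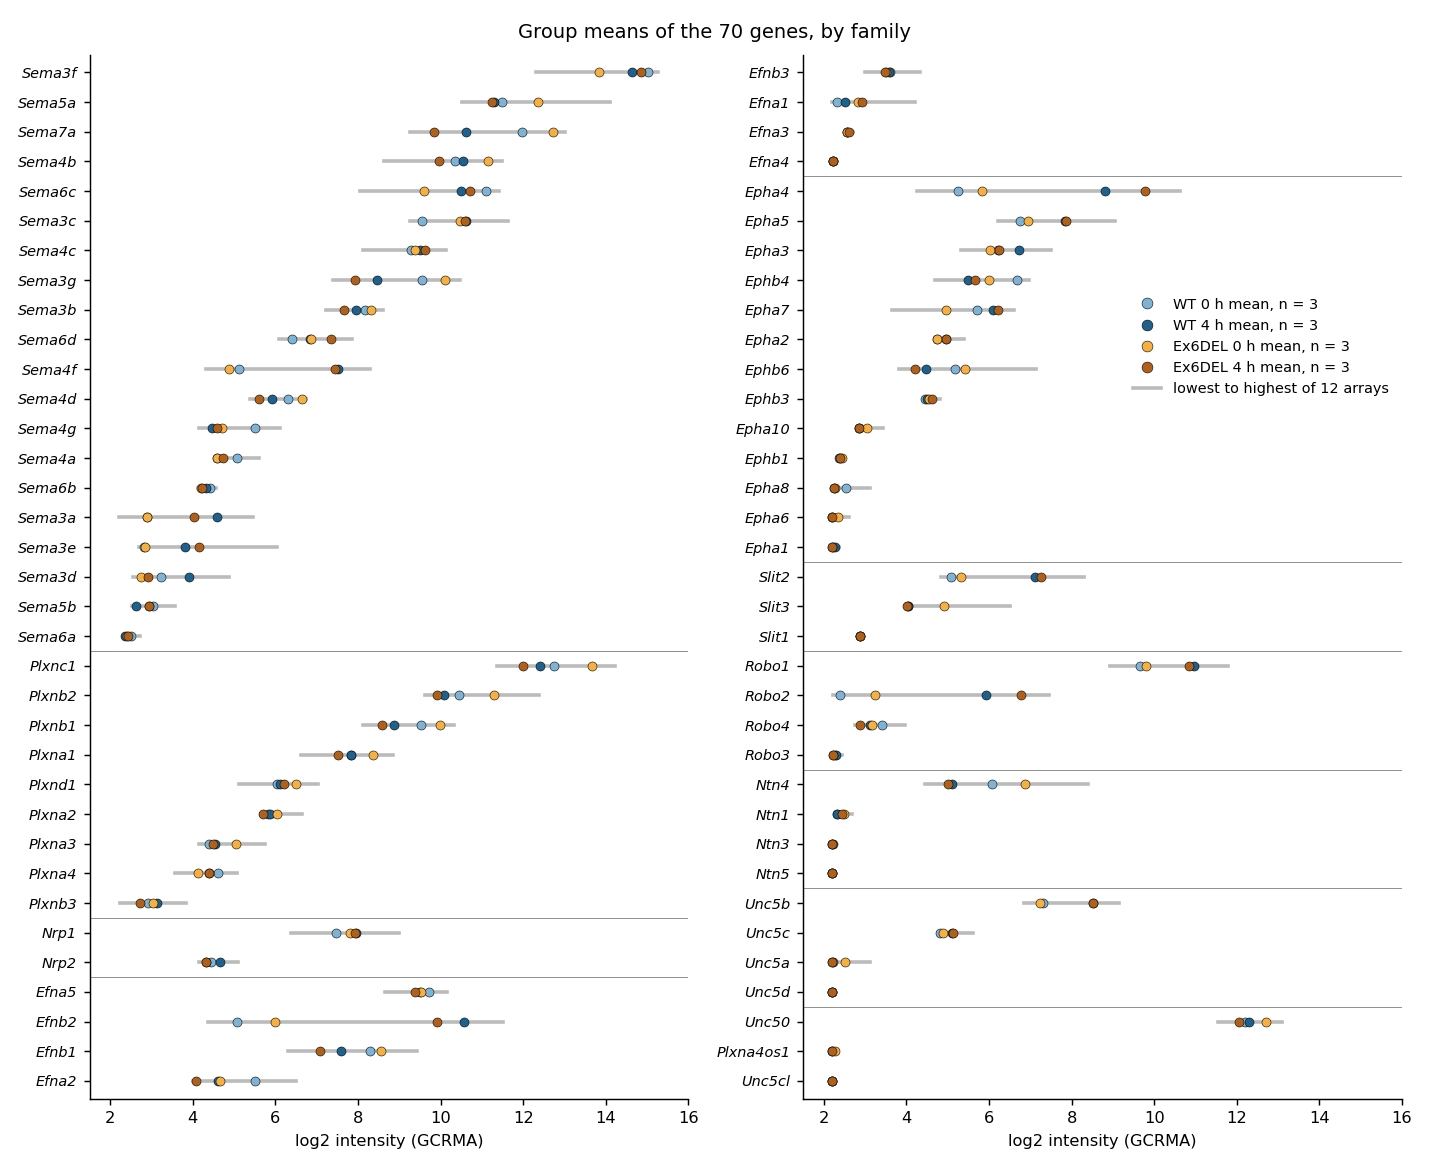
Group means of the 70 genes on the log2 intensity scale (n = 3 arrays per point), ordered by family, with a grey bar from the lowest to the highest of the 12 arrays. The means of Efnb2, Epha4, Robo2, Slit2 and Sema4f before and after hCG lie far apart, while 38 genes have a mean of 5 or less.

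The hCG response was measured in WT, in Ex6DEL, and as the mean of both, which sets 6 arrays of 4 h against 6 of 0 h. A gene is called at a limma p-value under 0.05 after Benjamini-Hochberg adjustment over all 18194 genes. In the mean of both genotypes 11 of 70 guidance genes were called (15.7%), where 9.72% of all genes were. Of these, 7 rose (10% of the members, against 3.1% of all genes) and 4 fell (5.71% against 6.62%). The ephrin Efnb2, the Eph receptor Epha4, the slit receptor Robo2, the ligand Slit2, the semaphorins Sema4f and Sema3a, and the netrin receptor Unc5b rose. The semaphorins Sema4d, Sema7a and Sema3g and the plexin Plxnb1 fell. The count of 11 went to 5 without WT 0 h replicate 3 (7.14%, beside 5.25% of all genes). It went to 6 (8.57%) without WT 0 h replicate 2 (4.92% of all genes) or Ex6DEL 4 h replicate 1 (6.35%). It went to 7 (10%) without WT 4 h replicates 1 or 2, Ex6DEL 0 h replicate 2 or Ex6DEL 4 h replicate 3. In the fits with 7, between 5% and 5.97% of all genes were called. Without both Ex6DEL 0 h replicates 1 and 3, a setting chosen after seeing the data, several of the 11 lost their call and other members gained one. That setting left 1 array in the group. Among the 32 members with a mean above 5, 9 were called (28.1%), beside 17.9% of the 8809 such genes in all. The median change over the 70 members was -0.01, as over all genes. A median absolute change of 0.74 in the 32 members stood beside 0.49 in the 8809 genes.

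The promoters of 5 called genes are shown as examples of both directions after hCG: Efnb2, Epha4 and Slit2 rose, and Plxnb1 and Sema7a fell. Each is the stretch of 250 bases before the RefSeq start in build GRCm38.p6, written 5′ to 3′ on the gene's strand, with motif matches in capitals.
Efnb2: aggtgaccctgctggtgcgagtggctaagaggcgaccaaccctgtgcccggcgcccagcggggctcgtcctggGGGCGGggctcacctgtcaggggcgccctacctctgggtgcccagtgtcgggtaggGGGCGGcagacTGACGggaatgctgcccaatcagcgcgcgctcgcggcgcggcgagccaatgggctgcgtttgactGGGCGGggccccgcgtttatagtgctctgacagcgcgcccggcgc
Epha4: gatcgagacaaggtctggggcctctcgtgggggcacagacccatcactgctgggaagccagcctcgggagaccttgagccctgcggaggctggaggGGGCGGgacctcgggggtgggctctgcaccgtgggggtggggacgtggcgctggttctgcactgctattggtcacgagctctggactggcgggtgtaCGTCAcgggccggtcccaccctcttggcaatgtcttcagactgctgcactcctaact
Slit2: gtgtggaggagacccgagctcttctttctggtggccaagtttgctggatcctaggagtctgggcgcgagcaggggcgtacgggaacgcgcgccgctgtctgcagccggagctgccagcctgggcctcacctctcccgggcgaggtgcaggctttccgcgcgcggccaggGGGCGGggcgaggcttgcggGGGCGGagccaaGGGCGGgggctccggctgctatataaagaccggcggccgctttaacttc
Plxnb1: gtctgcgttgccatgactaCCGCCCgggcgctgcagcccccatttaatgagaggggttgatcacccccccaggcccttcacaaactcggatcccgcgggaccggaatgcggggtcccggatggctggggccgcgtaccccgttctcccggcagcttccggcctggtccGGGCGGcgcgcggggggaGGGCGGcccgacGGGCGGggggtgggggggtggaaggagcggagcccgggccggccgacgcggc
Sema7a: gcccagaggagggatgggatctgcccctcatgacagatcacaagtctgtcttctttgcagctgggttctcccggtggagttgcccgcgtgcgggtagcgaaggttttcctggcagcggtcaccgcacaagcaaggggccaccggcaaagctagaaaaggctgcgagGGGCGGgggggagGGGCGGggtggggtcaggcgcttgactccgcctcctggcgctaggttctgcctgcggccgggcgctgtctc
They lie at chr8:8661243-8661492 (Efnb2, minus strand), chr1:77515089-77515338 (Epha4, minus), chr5:47982905-47983154 (Slit2, plus), chr9:109095186-109095435 (Plxnb1, plus) and chr9:57939862-57940111 (Sema7a, plus). The motifs searched, on both strands, were the GC box GGGCGG, the cAMP response element core TGACG, the AP-1 site TGANTCA and the Runx site TGTGGT. The core and the AP-1 site begin with the same letters, TGA. Capitals in the 5 sequences mark GC boxes (3 in Efnb2, 1 in Epha4, 3 in Slit2, 4 in Plxnb1 and 2 in Sema7a) and the core, once each in Efnb2 and Epha4. Promoters were found for 60 of the 70 members, in 76 windows, since some genes have several starts. A GC box stood in 72.4% of these windows, beside 48.3% of the windows of genes on the array and 32.7% of all RefSeq windows. The median share of G and C was 64.4%, 57.6% and 52.4% in the same order. TGACG stood in 9.21% of the member windows, 22.7% of the array's and 17.8% of all. For the AP-1 site these shares were 3.95%, 5.62% and 6.75%, and for the Runx site 13.2%, 11.7% and 14%. Of the 15 windows of the 11 called genes, 2 held TGACG, 1 the AP-1 site, 2 the Runx site and 8 a GC box. A match is a run of letters and not a measured binding site.

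Efnb2 encodes ephrin-B2, a transmembrane ligand of EphB receptors, best known from arterial endothelium. In WT it read 5.09, 5.62 and 4.52 at 0 h and 11.50, 10.41 and 9.80 at 4 h. In Ex6DEL it read 4.38, 5.88 and 7.72 at 0 h and 10.52, 8.97 and 10.26 at 4 h. Every array of 4 h lay above every array of 0 h, and Ex6DEL 0 h replicate 3 was the highest of the 0 h arrays. The mean change was 4.71 (SE 0.59, adjusted p = 0.00465), a 26.1-fold rise. Efnb2 was the guidance gene called in WT, with a change of 5.49 (SE 0.84, adjusted p = 0.0303). Of all genes 0.929% were called there, 0.61% as higher and 0.319% as lower. Its change in Ex6DEL was 3.92 (SE 0.84, adjusted p = 0.0525) and was not called. Of its 4 probe sets, another gave 6.13 in WT and 4.68 in Ex6DEL, and the other 2 had means of 2.57 and 2.56, near the floor.

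Epha4, a receptor tyrosine kinase that binds ephrins of both classes, rose as well. It read 6.41, 4.36 and 4.95 at 0 h and 10.01, 8.52 and 7.86 at 4 h in WT. The Ex6DEL arrays gave 4.34, 4.25 and 8.93 at 0 h and 10.63, 8.89 and 9.80 at 4 h. The WT groups did not overlap, while Ex6DEL 0 h replicate 3, at 8.93, lay among the 4 h arrays. The mean change was 3.74 (SE 0.89, adjusted p = 0.0349), or 13.4-fold. Its 4 other probe sets also had higher means after hCG, with mean changes from 1.03 to 3.49. Ephb4, the main receptor of ephrin-B2, was 6.67 ± 0.31 at 0 h and 5.48 ± 0.69 at 4 h in WT, and 6.00 ± 0.62 and 5.65 ± 0.20 in Ex6DEL. Its WT change of -1.19 (SE 0.39) had an adjusted p of 0.216. Efnb1, the related ligand, had a mean change of -1.10 (SE 0.35, adjusted p = 0.086). Epha5 had changes of 1.07 in WT and 0.92 in Ex6DEL and a mean change with an adjusted p of 0.136, and Efna5 stayed between 8.66 and 10.15 on all arrays. In all, 1 of 8 ephrins and 1 of 13 Eph receptors were called.

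In the slit system the ligand Slit2 and the receptor Robo2 rose. Slit2 read 5.49, 4.93 and 4.85 at 0 h and 8.30, 6.21 and 6.87 at 4 h in WT, and 5.62, 5.26 and 5.07 and then 8.17, 6.87 and 6.76 in Ex6DEL. All 6 arrays of 4 h lay above all 6 of 0 h. Slit2 rose by 1.99 in the mean of both genotypes (SE 0.39, adjusted p = 0.018), or 3.98-fold. Its other probe sets had means of 2.25 and 2.44, near the floor. Robo2 lay near the floor before hCG in WT, at 2.66, 2.27 and 2.25, and read 6.93, 6.24 and 4.63 at 4 h. In Ex6DEL it read 2.23, 2.42 and 5.07 at 0 h and 7.46, 6.19 and 6.66 at 4 h. Robo2 did not overlap between times within a genotype, but the 5.07 of Ex6DEL 0 h replicate 3 exceeded the 4.63 of WT 4 h replicate 3. Its mean change was 3.53 (SE 0.58, adjusted p = 0.00995), or 11.6-fold, from a start close to background, so the true fold may be larger. Robo1, the other main slit receptor, had a mean change of 1.17 (SE 0.40) with an adjusted p of 0.112. Robo4, the endothelial member of the family, stayed between 2.75 and 3.96. Slit1 read 2.87 on every array. Slit3 lay between 3.97 and 4.17 except for 6.51 in Ex6DEL 0 h replicate 1, the array with raised theca and stroma markers, whose part in this value was not tested.

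Among the semaphorins Sema4f, a transmembrane member, and Sema3a rose. Sema4f read 5.17, 5.27 and 4.94 at 0 h and 7.67, 6.70 and 8.19 at 4 h in WT. Its Ex6DEL values were 4.31, 5.08 and 5.25 at 0 h and 7.79, 6.29 and 8.28 at 4 h. The arrays of 4 h stood wholly above those of 0 h, and Ex6DEL 0 h replicate 3 lay with the other arrays of 0 h. The mean change was 2.48 (SE 0.39, adjusted p = 0.0081), or 5.59-fold, and the other Sema4f probe set read 2.57 or 2.58 on all arrays of 0 h, near the floor, and 6.57 to 9.83 at 4 h. Sema3a, the secreted ligand of neuropilin-1, rose by 1.44 (SE 0.32, adjusted p = 0.0272) within the low range of the array. Its values were 3.21, 3.21 and 2.22 at 0 h and 4.12, 5.45 and 4.21 at 4 h in WT, and 3.20, 3.21, 2.22 and 4.22, 3.69, 4.22 in Ex6DEL. The times did not overlap, yet the other Sema3a probe sets had means of 2.22 and 2.24 and showed no level to compare. The neuropilins were not called: Nrp1 was 7.46 ± 0.94 at 0 h and 7.94 ± 0.12 at 4 h in WT, and Nrp2 ranged from 4.16 to 5.09.

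Unc5b, a netrin receptor also bound by Flrt proteins, rose in both genotypes. It read 7.16, 7.87 and 6.86 at 0 h and 9.14, 8.30 and 8.13 at 4 h in WT, and 6.85, 7.58 and 7.27 and then 8.50, 8.94 and 8.09 in Ex6DEL. The highest value of 0 h, 7.87, lay below the lowest of 4 h, 8.09. Averaged over genotypes, Unc5b rose by 1.25 (SE 0.26, adjusted p = 0.0223), or 2.38-fold. The other Unc5 receptors were low: Unc5c lay between 4.77 and 5.61, Unc5d at 2.21 on all arrays, and Unc5a at 2.21 to 3.12. Ntn4 had a mean change of -1.40 (SE 0.49) with an adjusted p of 0.119, and none of the 4 netrins was called.

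The ligand Sema4d and its receptor Plxnb1 both fell. Sema4d read 6.15, 6.10 and 6.66 at 0 h and 5.78, 6.00 and 6.00 at 4 h in WT, and 6.69, 6.75 and 6.47 and then 5.55, 5.85 and 5.39 in Ex6DEL. All 4 h arrays lay below all 0 h arrays, by a small step in WT. Sema4d was the guidance gene called in Ex6DEL, where it fell by 1.04 (SE 0.17, adjusted p = 0.0323). Of all genes 2.17% were called there, 0.566% as higher and 1.6% as lower. In WT the change was -0.38 (SE 0.17, adjusted p = 0.361), and the mean change was -0.71 (SE 0.12, adjusted p = 0.0112). The other Sema4d probe sets had means of 2.21 and 2.22, at the floor. Plxnb1, a receptor that acts on the cytoskeleton, read 9.12, 9.90 and 9.55 at 0 h and 8.41, 9.25 and 8.96 at 4 h in WT. Its Ex6DEL values were 10.06, 10.32 and 9.60 at 0 h and 8.12, 9.31 and 8.29 at 4 h. The times overlapped in WT and not in Ex6DEL. Averaged over genotypes, its change was -1.03 (SE 0.26, adjusted p = 0.0419), or 2.05-fold lower. Plxnb2 changed by -0.87 (SE 0.28, adjusted p = 0.0896) and was not called, although its arrays of 4 h, at 9.62 to 10.23, all lay below those of 0 h, at 10.30 to 12.38.

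Sema7a, a semaphorin anchored in the membrane by a lipid, read 10.79, 12.39 and 12.71 at 0 h and 9.25, 10.88 and 11.69 at 4 h in WT. In Ex6DEL it read 12.65, 13.00 and 12.53 before hCG and 9.27, 10.55 and 9.69 after it. The times overlapped in WT and stood well apart in Ex6DEL. The mean change was -2.12 (SE 0.49, adjusted p = 0.0312), or 4.36-fold lower. The other Sema7a probe set had a mean of 2.22, at the floor. The Sema7a receptor Plxnc1 had changes of -1.65 in Ex6DEL and -0.34 in WT. It was not called, with an adjusted p of 0.0916 for their mean. The probe sets of Plxnc1 disagreed in size. Another bright one, with a mean of 11.66, gave -1.72 in WT, -3.61 in Ex6DEL and -2.67 in the mean (limma adjusted p = 0.0292 over all probe sets), so whether Plxnc1 is called depends on the probe set. The other 4 gave mean changes from -1.95 to -0.63, none of them called. Sema3g, a secreted class 3 semaphorin, read 8.48, 9.71 and 10.46 at 0 h and 7.57, 9.02 and 8.80 at 4 h in WT. Its Ex6DEL values were 10.36, 9.85 and 10.09 and then 7.61, 7.40 and 8.76. Again the times overlapped in WT and not in Ex6DEL. Sema3g fell by 1.63 in the mean (SE 0.41, adjusted p = 0.0425), or 3.1-fold. The theca and stroma markers averaged 8.0 to 9.08 at 0 h and 8.20 to 8.63 at 4 h in WT. In Ex6DEL they averaged 8.22 to 11.27 and then 7.56 to 8.63. By limma 0 of these 14 markers were called (2 at an unadjusted p under 0.05 in the mean). Their part in the falls of Sema7a, Sema3g and Plxnb1 was not tested. In all, 2 of 20 semaphorins rose, 3 fell, and 15 were not called, among them Sema3f, Sema5a and Sema4b.

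**Figure D2:**
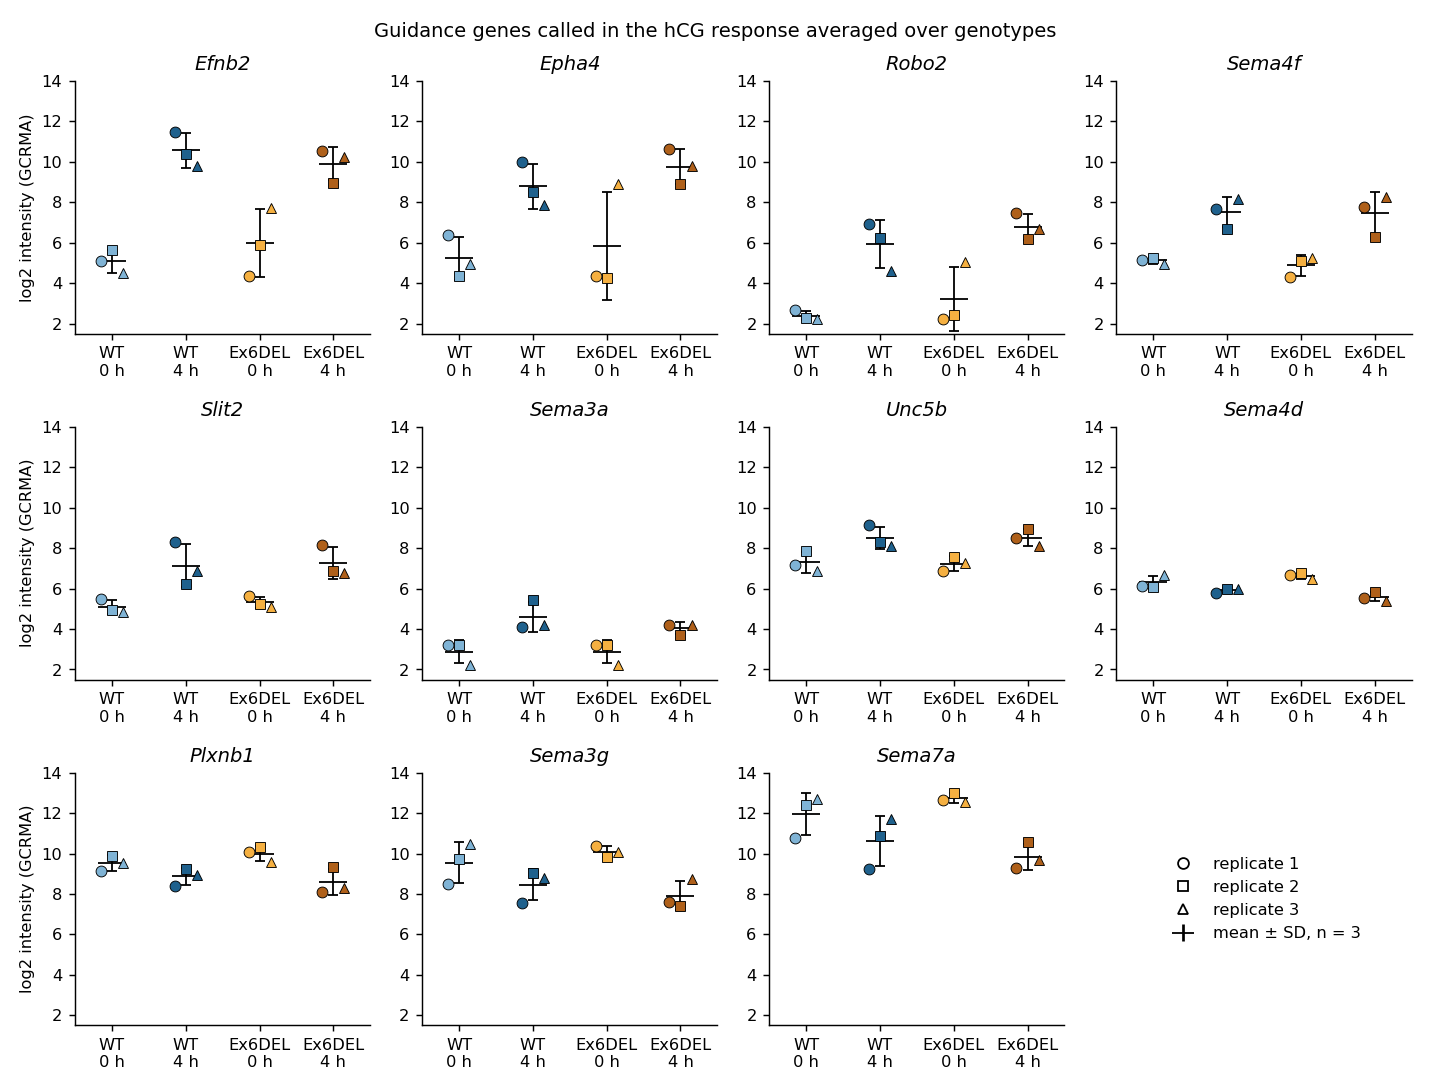
The 11 called genes by group, with log2 intensity on the vertical axis, a symbol per array, and the mean ± SD of 3 arrays. Efnb2 and Sema4f stand apart between 0 h and 4 h in both genotypes, and a triangle marks Ex6DEL 0 h replicate 3, at 8.93 in Epha4.

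Within WT, 18 of the 70 genes had arrays of 4 h and 0 h that did not overlap, 25.7% beside 18.9% of all genes. Of these 8 were higher at 4 h (7.52% of all genes) and 10 lower (11.4% of all genes). In Ex6DEL 21 did, 30% beside 19.7%, with 11 higher (5.13% of all genes) and 10 lower (14.5% of all genes). Over both genotypes together 7 did, 10% beside 7.67%. Efnb2, Sema3a, Sema4f, Slit2 and Unc5b were higher at 4 h (2.48% of all genes), and Plxnb2 and Sema4d lower (5.18% of all genes). All 11 called genes changed in the same direction in both genotypes. They were picked by the mean of both changes on these same arrays, which favours such agreement and a separation of the times. Of the 11, 8 did not overlap between times in WT (the exceptions were Sema7a, Plxnb1 and Sema3g) and 10 in Ex6DEL (the exception was Epha4). Across the 32 members with a mean above 5, the changes in WT and Ex6DEL correlated with a Pearson r of 0.87 and a Spearman coefficient of 0.78, beside 0.86 and 0.76 over the 8809 genes. This is a description across genes, which are not independent and were read on the same arrays. Of the 32, 26 changed in the same direction. This was counted for the members only, so it is not read as particular to them. Sema6c and Sema3f were among those that did not, with changes of -0.62 and -0.39 in WT and 1.11 and 1.01 in Ex6DEL, none of them called.

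**Figure D3:**
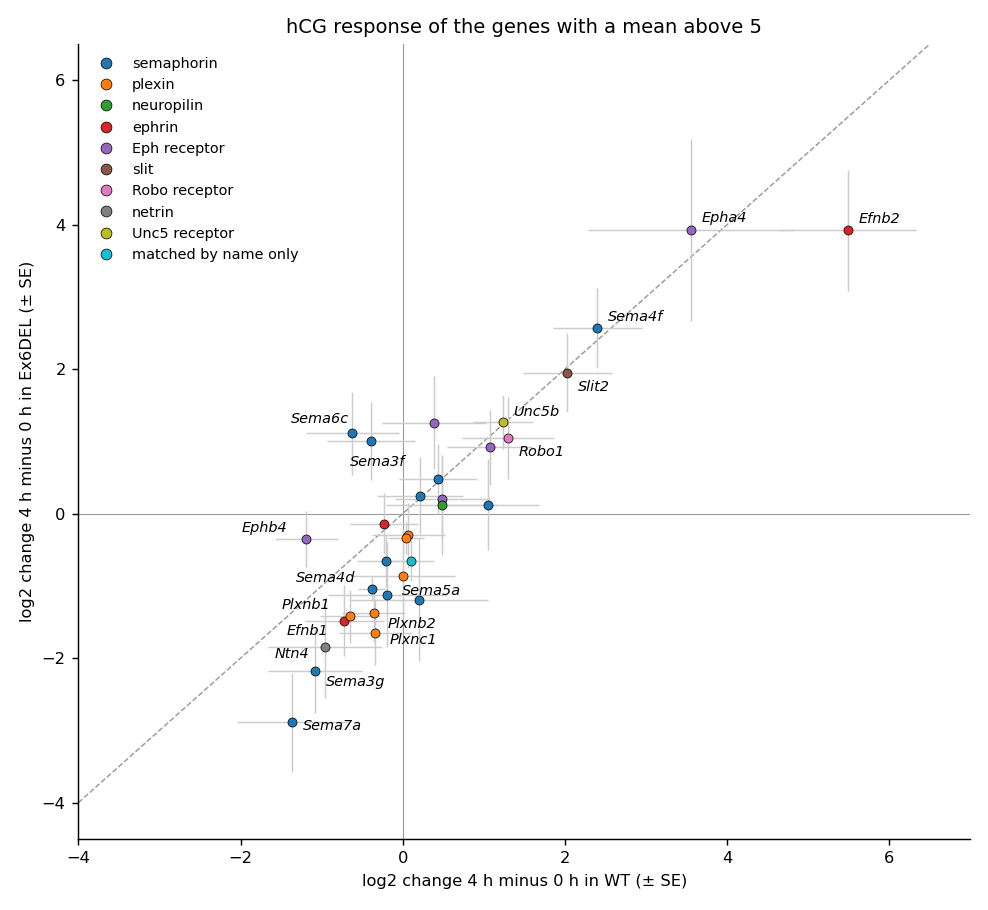
Change after hCG (4 h minus 0 h, log2) in WT on the horizontal axis and in Ex6DEL on the vertical axis for the 32 genes with a mean above 5, with SE bars and a dashed line of equal change. Efnb2 and Epha4 lie at the upper right and Sema7a at the lower left, and Sema6c and Sema3f lie in the upper left field.

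How far a call rested on single arrays was read from 12 fits that each left 1 array out. For the mean over genotypes, Efnb2, Robo2, Sema4f, Sema4d and Slit2 stayed called in all 12 fits, with adjusted p up to 0.0171, 0.0315, 0.025, 0.0326 and 0.0487. Unc5b was lost without WT 0 h replicate 3 (adjusted p = 0.0554). It was also lost with array weights (0.0561) and when Ex6DEL 0 h replicate 3 was dropped together with WT 0 h replicate 1 (0.0602). Without both Ex6DEL 0 h replicates 1 and 3, which left 1 array in that group, Unc5b, Slit2, Plxnb1, Sema3a, Sema3g and Sema7a were lost. Sema3a was lost without WT 0 h replicates 2 or 3 or Ex6DEL 4 h replicates 1 or 3 (adjusted p up to 0.0681). Epha4 and Sema7a were each lost without any 1 of 8 arrays: WT 0 h replicates 2 and 3, WT 4 h replicates 1 and 2, Ex6DEL 0 h replicates 1 and 2, and Ex6DEL 4 h replicates 1 and 3. Their adjusted p then reached 0.0862 and 0.0776. Plxnb1 was lost without any of the same 8 or WT 4 h replicate 3 (up to 0.101). Sema3g was called in 2 of the 12 fits, those without WT 0 h replicate 1 or Ex6DEL 4 h replicate 3, and its adjusted p otherwise reached 0.099. No change of these 11 genes turned its direction in any of the 12 fits. The WT call of Efnb2 was lost without any 1 of 7 arrays: WT 0 h replicates 1, 2 or 3, WT 4 h replicates 1 or 2, or Ex6DEL 4 h replicates 1 or 3 (adjusted p up to 0.105). Its change stayed between 5.02 and 5.87. It was also lost in a fit to the WT arrays by themselves (adjusted p = 0.0777). The Ex6DEL call of Sema4d was lost without WT 0 h replicate 2, WT 4 h replicate 2, Ex6DEL 0 h replicates 1 or 2, or Ex6DEL 4 h replicates 1 or 3 (adjusted p up to 0.11), and its change stayed between -1.17 and -0.94. It was also lost in a fit to the Ex6DEL arrays by themselves (0.155) and without both Ex6DEL 0 h replicates 1 and 3.

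Ex6DEL 0 h replicate 3, on which ovulatory genes were raised, also carried raised levels of some of the guidance genes that rose after hCG. Measured from the mean of the other 5 arrays of 0 h to the mean of 4 h, Epha4 stood at 92% of the way there, Robo2 at 67.9% and Efnb2 at 51%. All of these lay above every other array of 0 h. Sema4f stood at 11.7% and Unc5b at 0.653%. Slit2, at 5.07, and Sema3a, at 2.22, also lay within the range of the other arrays of 0 h. The falling genes Sema7a (12.53), Sema3g (10.09) and Sema4d (6.47) lay there too. Without this array the Ex6DEL change of Efnb2 was 4.79 (adjusted p = 0.0156), that of Epha4 5.48 (adjusted p = 0.0157) and that of Robo2 4.44 (adjusted p = 0.0137), and 6 guidance genes in all were called in Ex6DEL in place of 1. That is 8.57% of the members, near the 6.9% of all genes called in the same fit. The part of the raised ovulatory genes in these values was not tested.

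**Figure D4:**
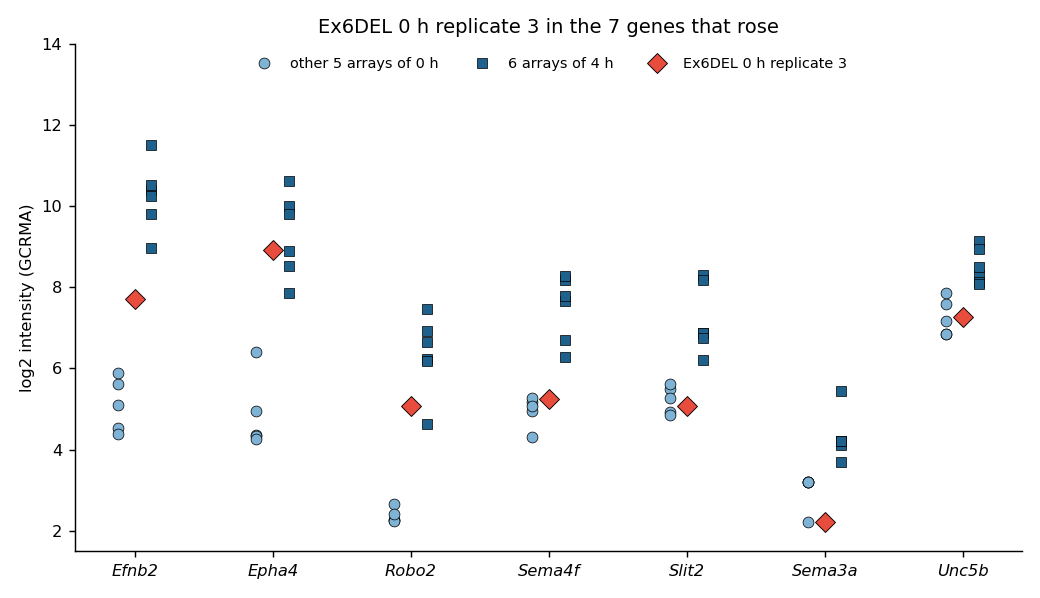
Log2 intensity of the 7 genes that rose, on the 5 other arrays of 0 h (circles), the 6 arrays of 4 h (squares) and Ex6DEL 0 h replicate 3 (diamond). The diamond lies among the 4 h arrays in Epha4, between the times in Efnb2, and with the 0 h arrays in Sema4f, Slit2, Sema3a and Unc5b.

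Between the genotypes no guidance gene was called. At 0 h the count was 0 of 70, where 0.033% of all genes were called, and 4 members (5.71%) had an unadjusted limma p under 0.05, beside 5.36% of all genes. At 4 h it was 0 of 70, where 0% of all genes were called, and 0 members had an unadjusted p under 0.05, beside 1.62% of genes. For the difference between the genotypes in the hCG response it was 0 of 70, where 0.011% were called, and 1 member had an unadjusted p under 0.05, beside 3.2% of genes. That member was Sema4d, with an Ex6DEL minus WT response of -0.66 (SE 0.24, 95% interval -1.21 to -0.11, adjusted p = 0.871). The intervals were wide: for Efnb2 the difference in response was -1.56, from -4.27 to 1.14. At 0 h the smallest p-values belonged to Sema6b, Sema6c, Sema4g and Plxna3, each with an adjusted p of 0.874. The arrays of the genotypes did not overlap at 0 h in 5 members, beside 6.41% of all genes. Plxnb2 and Unc5c were higher in Ex6DEL (3.96% of all genes) and Sema3f, Sema6b and Sema6c lower (2.45% of all genes). At 4 h this held for 1 member, beside 2.98% of all genes: Efna2 was lower (2.02% of all genes), and none was higher (0.962% of all genes). The smallest p at 4 h belonged to Sema3d, with -0.99 (95% interval -2.09 to 0.10) and an adjusted p of 1. A median absolute difference of 0.19 at 4 h, in the 32 members above 5, equalled that over all such genes. At 0 h it was 0.48 beside 0.32, and for the difference of responses 0.75 beside 0.43.

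Before hCG the differences moved with Ex6DEL 0 h replicate 1, the array with raised theca and stroma markers. Oocyte and granulosa genes also peaked there: 13 oocyte markers averaged 8.17 against 6.34 to 7.58 elsewhere, with the egg coat gene Zp3 at 12.62 against 8.33 to 9.82. The 14 preovulatory granulosa genes averaged 12.38 against 9.71 to 12.03. Between genotypes at 0 h, 7 of 13 oocyte markers and 0 of 14 theca and stroma markers had an unadjusted limma p under 0.05, and 0 of either list were called. Of the 32 members with a mean above 5, it was the highest of the 12 arrays in 10 and the lowest in 5, 46.9% together, beside 42.7% of all such genes. Sema5a, a transmembrane semaphorin, read 14.11 there and 11.03 to 11.96 on the other arrays of 0 h. Plxnb2 read 12.38 against 10.30 to 10.84, and Ntn4 8.39 against 5.15 to 7.07. Sema3f, a secreted ligand of neuropilin-2, was low there, at 12.31 against 14.46 to 15.27, as was Sema6c at 8.06 against 10.11 to 11.42. Without this array the difference at 0 h went from -1.19 to -0.43 in Sema3f, from -1.51 to -0.74 in Sema6c, from 0.87 to -0.01 in Sema5a and from 0.79 to 0.02 in Ntn4. It grew from 0.91 to 1.72 in Efnb2. The sign turned in 7 of the 32, and the median absolute difference went from 0.48 to 0.31. The other probe sets of Sema3f (means 2.21 and 2.46) and Sema6c (2.58 and 2.31) lay near the floor, so these values rest on a single probe set each. The part of the theca, oocyte and granulosa genes in these values was not tested.

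**Figure D5:**
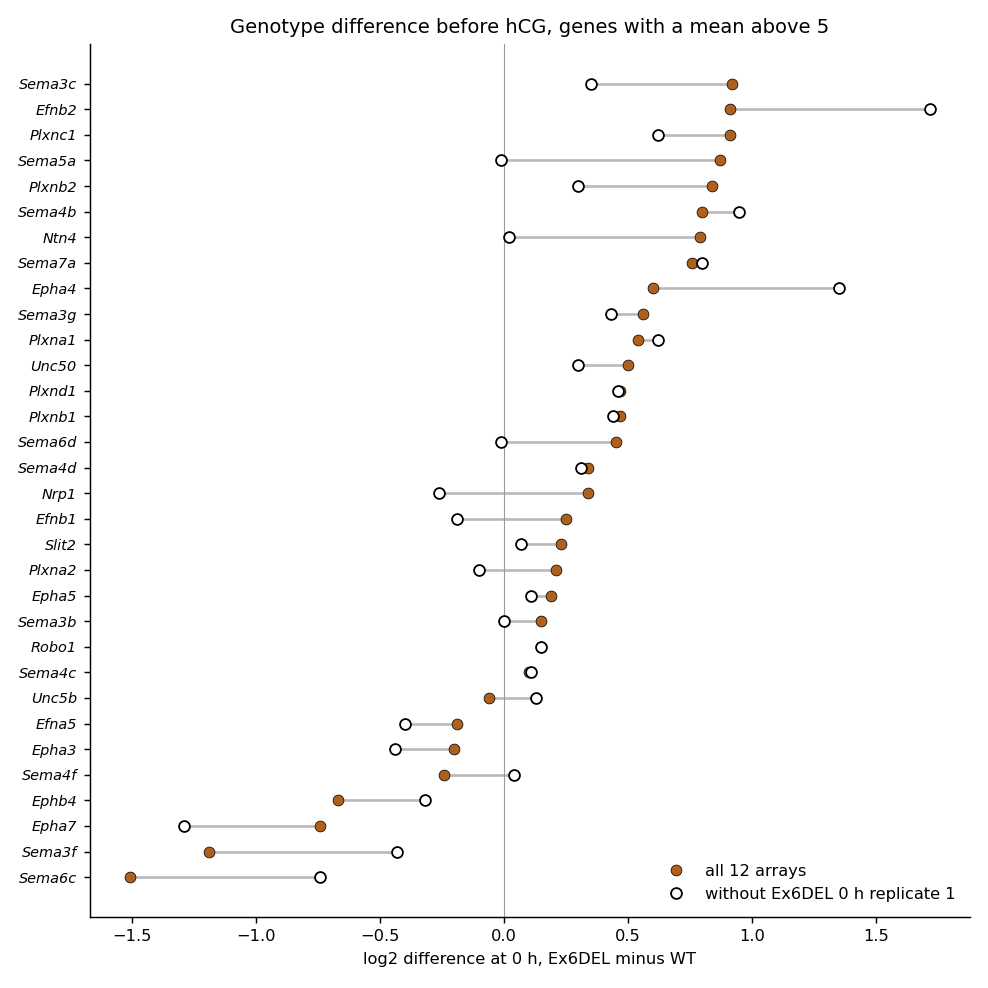
Ex6DEL minus WT difference at 0 h (log2) for the 32 genes with a mean above 5, over all 12 arrays (filled) and without Ex6DEL 0 h replicate 1 (open). The differences of Sema5a and Ntn4 shrink from 0.87 and 0.79 to -0.01 and 0.02, and those of Efnb2 and Epha4 widen.

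Co-receptors and intracellular effectors of the same systems were taken as a list of 71 genes, of which 68 were measured. In the mean over genotypes 9 rose and 7 fell, 23.5% of the list beside 9.72% of all genes, and the median change was -0.01. The list averaged 6.81 to 7.20 on the arrays. Of all genes with a mean above 5, 17.9% were called, though the list was not cut at that level. Rnd3, an atypical small GTPase that loosens the actin cytoskeleton, changed by 5.81 (SE 0.86, adjusted p = 0.00733). Arhgef12, a guanine nucleotide exchange factor that binds plexin-B receptors, rose by 2.78 (SE 0.44, adjusted p = 0.00847) while Plxnb1 fell. The Unc5 ligands Flrt3 and Flrt2 rose by 3.98 (adjusted p = 0.0354) and 2.90 (adjusted p = 0.0351). The neogenin ligand Rgmb rose by 3.27 (adjusted p = 0.0159), and Rhoa, Pak2, Pdlim7 and Mical1 rose by 0.73 to 1.21. On Ex6DEL 0 h replicate 3 Flrt3 read 10.36, Flrt2 8.30 and Rgmb 7.06. The other arrays of 0 h gave 5.22 to 6.78, 6.18 to 7.94 and 3.59 to 5.53 in the same order. Srgap3, a GTPase-activating protein of the slit-Robo pathway, fell by 2.62 (SE 0.40, adjusted p = 0.00807). Fyn, a kinase recruited by plexins and Eph receptors, fell by 1.07 (adjusted p = 0.0209). Cdk5, Farp2, Ablim1, Arhgap35 and Rnd2 fell as well. In WT 0 of the 68 were called by limma, with adjusted p from 0.0579 upwards, and 17 (25%) had an unadjusted p under 0.05, beside 14.4% of all genes. In Ex6DEL the count was 2 (2.94%, near the 2.17% of all genes), Srgap3 at -2.82 (adjusted p = 0.0468) and Limk2 at -0.84 (adjusted p = 0.0458), both lower.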

How the data were processed

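RNA of granulosa cells was hybridised to 12 Affymetrix mouse expression arrays. The log2 intensities were made by the authors with GCRMA (version not given), per the submitters' processing notes. GCRMA corrects background, normalizes between arrays and summarises each probe set. They were used as deposited. Of 45101 probe sets, 34958 carried 1 gene symbol in GEO's platform annotation; 932 with several and 9211 without a listed symbol were left out. The probe set with the highest mean stood for its gene. A model of 4 groups was fitted to all 12 arrays and 18194 genes with limma 3.58.1 under R 4.3.3 (two-sided moderated tests from eBayes without a trend or robust fit, 8 residual degrees of freedom), and tested on simulated data. Errors are standard errors of the model unless given as SD. With 3 arrays in each group, their number limits the precision.

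The members and lists were chosen with earlier results of these data known. Named genes are members called in any comparison, for each comparison and direction the 5 of smallest p, the 3 with the highest mean per family, those whose times did not overlap, up to 4 list genes with the smallest p per response, and Smarca1. Other genes named, among them further list genes and members described by their level or by 1 array, were chosen after their values were seen. Promoters are from RefSeq (GRCm38.p6). Gene positions and protein sequences were not used here. The alternatives were other normalizations, probe set rules, low-value filters, limma settings, thresholds, a replicate block and the omission of arrays.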

Additional observations from a re-analysis of the deposited data

How the results depend on the processing

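The 11 called genes kept their direction in the mean over genotypes under every setting that used the same probe sets. For that mean, 11 guidance genes were called with the replicate number as a block (15.7%, beside 9.44% of all genes). The count was 13 after quantile normalization (18.6%, beside 11.5%) and 13 with array weights (18.6%, beside 16.5%). It was 14 among genes above the median level (37.8%, beside 27.5%) and 3 at an adjusted p under 0.01 (4.29%, beside 2.23%). Leaving out 1 array at a time gave 5 to 12, where 4.92% to 12.2% of all genes were called. The share of all genes called moved with these settings as well. In WT the count of 1 became 3 among genes above the median level (8.11%, beside 5.77%) and 3 with low values raised to the table median (5.36%, beside 2.82%). It was 2 with the mean of all probe sets (2.86%, beside 1.12%) and 8 with array weights (11.4% of the members, beside 12.6% of all genes). At an adjusted p under 0.10 it was 3 (4.29%, beside 2.9%). It was 0 with only the groups compared, with the replicate block and at an adjusted p under 0.01 (0.0934%, 0.467% and 0.0934% of all genes). Leaving out 1 array gave 0 to 2, where 0.275% to 1.89% of all genes were called. In Ex6DEL the count of 1 became 3 after quantile normalization (4.29%, beside 2.67%) and 5 after a shift to a common median (7.14%, beside 4.33%). It was 11 among genes above the median level (29.7%, beside 14.7%) and 5 with raised values (8.93%, beside 6.36%). It was 2 with the mean of probe sets (2.86%, beside 1.86%) and 8 under 0.10 (11.4%, beside 6.06%). It was 0 with only the groups compared, with the replicate block and under 0.01 (0.055%, 0.506% and 0.044% of all genes). It was 4 (5.71%, beside 7.11%) without both arrays of 0 h with raised ovulatory genes (WT 0 h replicate 1 and Ex6DEL 0 h replicate 3), and 0 to 6 with 1 array left out. In those Ex6DEL fits with 1 array left out, 0.143% to 6.9% of all genes were called. The cause of these moves was not tested, except that fewer arrays or fewer genes enter some fits.

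A setting chosen after seeing the data left out Ex6DEL 0 h replicates 1 and 3. It left 1 array in that group, assumed to vary like the others, so its calls are not counted here. Members both lost and gained calls in it. The gains included some between the genotypes at 0 h and in the difference of responses. In all other settings the genotype comparisons called 0.

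Replicate numbers are shared by the groups, but the labels do not say that a number marks a shared day or litter. Deviations from group means correlated above 0.1 in 11 of 18 same-numbered pairs of arrays, from -0.31 to 0.66. The main fit did not take the numbers as pairs, and whether they mark pairs was not tested. With the replicate block the adjusted p of Efnb2 in WT was 0.07 and that of Sema4d in Ex6DEL 0.0614, so both lost their call.

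Changes turned their sign only with another probe set of the gene, at or near the floor. For Efnb2, such a probe set gave -0.12 in WT, -0.09 in Ex6DEL and -0.10 in the mean. For Slit2 such a probe set gave -0.15, 0.00 and -0.07. For Sema4d, a probe set gave 0.00 in every comparison and another gave 0.01 in WT, 0.04 in Ex6DEL, 0.03 in the mean, 0.03 at 4 h and 0.03 in the difference of responses. Sema3a gave -0.00 and Sema7a 0.00 in WT, and Sema3d 0.02 between genotypes at 4 h.

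Over all genes with a mean above 5, quantile normalization moved the median change in Ex6DEL from -0.34 to -0.14, the genotype difference at 0 h from 0.21 to -0.03 and the difference of responses from -0.34 to -0.01. Signal over background is the other limit: 38 of the 70 genes had a mean of 5 or less.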

Other observations

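Several guidance genes stood apart, higher or lower, on a few arrays. Sema3e, a secreted ligand of plexin-D1, read 5.63 in WT 4 h replicate 1 and 6.05 in Ex6DEL 4 h replicate 1, and 2.70 to 3.57 on the other 10 arrays. Its mean change after hCG was 1.15 (SE 0.64, adjusted p = 0.344 by limma). Ephb6, an Eph receptor without kinase activity, read 7.13 in Ex6DEL 0 h replicate 1 and 3.83 to 5.35 elsewhere. In Ex6DEL 0 h replicate 2, Unc5a read 3.12, Epha10 3.44 and Plxna3 5.75, each the highest of the 12 arrays, while Epha7 (3.64) and Plxna4 (3.56) were the lowest. Efna1 read 4.21 in Ex6DEL 4 h replicate 2 and 3.61 in Ex6DEL 0 h replicate 2, and 2.21 to 2.95 elsewhere. These genes were chosen after their values were seen, and none was called in any comparison over all 12 arrays.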
